A study of Sus scrofa domesticus with 12 samples.

Results

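The genes described here are 10 genes of fat cells and of the lipid droplet: ADIPOQ, LEP, CFD, PLIN1, PLIN2, CIDEC, LPL, FABP4, DGAT2 and SCD. They were taken by name from a table of 11506 genes measured by RNA-seq in the peroneus tertius (PT) muscle of pigs, and all 10 were in it. A total of 9 passed the filter on low values, among 8765 genes tested, and LEP did not. DGAT2 passed the filter through the non-repaired limbs alone, so it was kept through the group in which it was highest. Levels are in TPM, a unit scaled for transcript length and to a common sum per library, so they can be compared between genes.

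The 12 libraries each came from 1 limb of 11 young adult female Yorkshire Cross pigs, with no genetic change in any group, at 12 weeks post-injury. Volumetric muscle loss (VML) injury was made by cutting a block of muscle out of the PT. There were 2 sham-operated limbs, in which the muscle was exposed and no tissue was removed (pigs 025 and 026), 2 non-repaired limbs (pigs 017 and 023), 2 limbs repaired with a hyaluronic acid hydrogel (Hya; pigs 016 and 017) and 6 limbs repaired with an extracellular matrix (ECM; pigs 013, 014, 018, 021, 022 and 024). The labels name small intestinal submucosa (SIS) for all 6 ECM limbs, whereas the study also used urinary bladder matrix, so the 6 are called ECM-repaired and the matrices are not told apart. Pig 017 gave 2 of the 10 injured limbs, so these stand for 9 pigs, and every sham-operated limb came from a pig that gave no injured limb. The RNA was from whole tissue, in which fewer cells of a type and less RNA per cell cannot be told apart.

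Fat cells store fatty acids as triglyceride in a large lipid droplet, and muscle fibers and macrophages keep smaller droplets. Perilipins and the protein CIDEC coat the droplet and govern its size and its access to lipases. Fatty acids reach the droplet either from lipoproteins, after lipoprotein lipase has cut their triglyceride, or by synthesis within the cell. Fat cells also release hormones and other proteins into blood, the adipokines. Skeletal muscle holds few fat cells when healthy, and fibro-adipogenic progenitors of injured muscle can become either fat cells or fibroblasts.

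SCD, which puts a double bond into newly made fatty acids, was higher in every injured limb than in either sham-operated limb. PLIN2 and LPL were lower in every injured limb than in either sham-operated limb. When tested, PLIN2 passed narrowly (limma adjusted p = 0.0484) and LPL did not pass (limma adjusted p = 0.0564). Over all tested genes, 49.8% were higher and 8.52% lower in every injured limb in the same way. CFD was also higher in every injured limb, but its log2 fold change of 0.98 was near the 0.73 of the median gene, and it did not pass once the libraries were rescaled. The genes that mark fat cells most closely, ADIPOQ, PLIN1, CIDEC and LEP, lay on both sides of the sham-operated values in TPM as deposited. On that scale ADIPOQ and PLIN1 differed 21.2-fold and 29.2-fold between the highest and the lowest injured limb. Rescaled, ADIPOQ and PLIN1 each had 6 injured limbs below both sham-operated limbs and none above, CIDEC 7 and 1, and LEP 6 and 1.

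**Figure D1:**
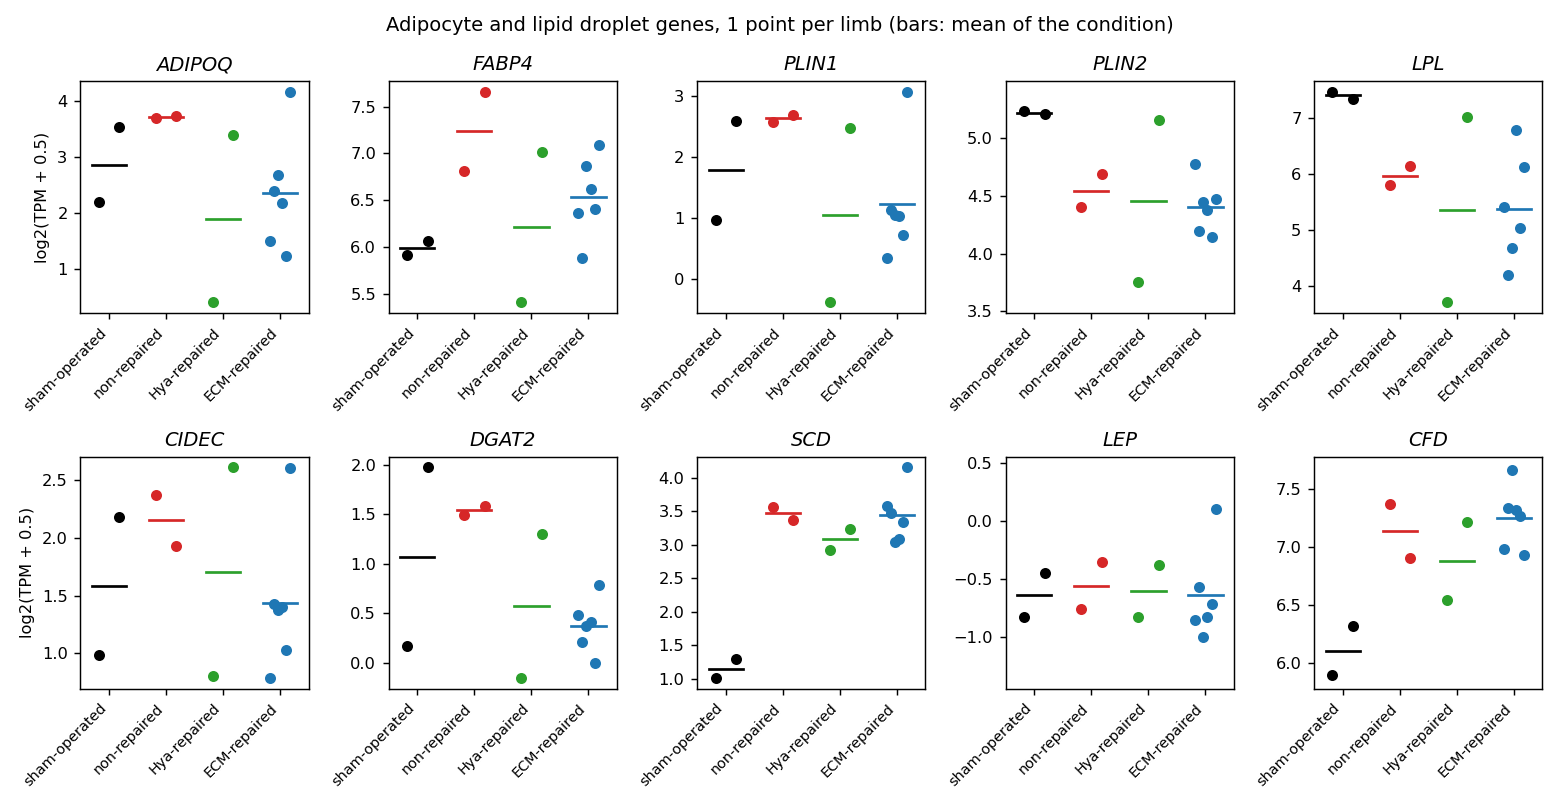
Level of each of the 10 genes in every limb, as log2(TPM + 0.5), with 1 point per limb and a bar at the mean of each condition (2 limbs each of sham-operated, non-repaired and Hya-repaired muscle, and 6 of ECM-repaired muscle); each panel has its own vertical axis, which does not start at 0. SCD and CFD sit above both sham-operated points in all 10 injured limbs, PLIN2 and LPL sit below both, and the other genes overlap or fall on both sides of the sham-operated limbs.

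Of the adipokines, ADIPOQ encodes adiponectin, a hormone made almost solely by fat cells. ADIPOQ was at 4.09 and 11.1 TPM in the sham-operated limbs. It was at 12.5 and 12.8 TPM in the non-repaired limbs and at 0.826 and 9.98 TPM in the Hya-repaired limbs. In the ECM-repaired limbs ADIPOQ ran from 1.86 to 17.5 TPM, with a median of 4.39 TPM. Of the 10 injured limbs, 3 were above both sham-operated limbs, 4 were below both and 3 lay between them. By condition mean the order was non-repaired, sham-operated, ECM-repaired, then Hya-repaired, and among neighbours in that order only the ranges of the non-repaired and sham-operated limbs were apart.

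LEP encodes leptin, the satiety hormone of fat cells. LEP was the lowest of the 10 genes, at 0.0629 and 0.230 TPM in sham-operated and 0 to 0.574 TPM in injured muscle, with a median of 0.0987 TPM. The groups overlapped throughout, with 3 injured limbs above both sham-operated limbs and 4 below. The difference of mean log2(TPM + 0.5) between injured and sham-operated limbs was 0.02, with p = 0.924 in a two-sided exact permutation test over 66 splits, in which the smallest possible p is 0.0152. One library, the ECM-repaired limb of pig 018, listed LEP at 0.

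CFD encodes adipsin, a protease that starts the alternative pathway of complement and is released by fat cells. CFD was at 59.0 and 79.1 TPM in the sham-operated limbs. The injured limbs ran from 92.6 to 202 TPM with a median of 151 TPM, and the lowest was the Hya-repaired limb of pig 016. The non-repaired limbs were at 120 and 165 TPM, the Hya-repaired limbs at 92.6 and 148 TPM and the ECM-repaired limbs at 121 to 202 TPM. All 10 injured limbs were above both sham-operated limbs, while the 3 injured groups overlapped one another.

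Among the droplet proteins, PLIN1 encodes the perilipin of fat cells, which keeps lipases off the droplet until a hormone calls for fatty acids. PLIN1 was at 1.46 and 5.49 TPM in the sham-operated limbs, at 5.44 and 5.95 TPM in the non-repaired limbs and at 0.269 and 5.07 TPM in the Hya-repaired limbs. In the ECM-repaired limbs it ran from 0.777 to 7.86 TPM with a median of 1.56 TPM. The injured limbs fell into a set of 6 at or under 1.70 TPM and a set of 4 at or above 5.07 TPM, with nothing between. The upper set held both limbs of pig 017, the non-repaired limb of pig 023 and the ECM-repaired limb of pig 024. Each sham-operated limb lay near 1 of these sets.

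CIDEC encodes a protein that joins small droplets into larger ones. CIDEC was at 1.48 and 4.02 TPM in sham-operated and at 1.22 to 5.61 TPM in injured muscle, with a median of 2.16 TPM. The same 4 limbs that were high in PLIN1 were the 4 highest in CIDEC, at 3.31 to 5.61 TPM, and the other 6 were at or under 2.18 TPM. Between the sham-operated limbs lay 5 injured limbs, with 3 above both and 2 below both.

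PLIN2 encodes a perilipin that coats droplets in many cells, muscle fibers and macrophages included. PLIN2 was at 36.4 and 36.9 TPM in the sham-operated limbs, which differed by 1.01-fold. The injured limbs ran from 12.96 TPM in the Hya-repaired limb of pig 016 to 35.0 TPM in that of pig 017, with a median of 20.9 TPM. The non-repaired limbs were at 20.6 and 25.2 TPM and the ECM-repaired limbs at 17.2 to 26.8 TPM. Every injured limb was thus below both sham-operated limbs, the Hya-repaired limb of pig 017 by the least, and the 3 injured groups overlapped one another.

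LPL encodes lipoprotein lipase, which muscle and fat cells send to the capillary wall to free fatty acids from lipoproteins. LPL was at 162 and 178 TPM in the sham-operated limbs. It was at 55.1 and 70.3 TPM in the non-repaired limbs, at 12.5 and 130 TPM in the Hya-repaired limbs and at 17.8 to 111 TPM in the ECM-repaired limbs, with a median of 37.1 TPM. All 10 injured limbs were below both sham-operated limbs, yet they differed 10.4-fold among themselves. The order of condition means was sham-operated, Hya-repaired, non-repaired and ECM-repaired, with only the sham-operated limbs apart from the others.

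FABP4 encodes a carrier of fatty acids in the cytosol of fat cells that is also made by capillary endothelium and macrophages. FABP4 was at 59.6 and 66.4 TPM in sham-operated and at 41.9 to 202 TPM in injured muscle, with a median of 105 TPM. Of the injured limbs, 8 were above both sham-operated limbs, and the Hya-repaired limb of pig 016 and the ECM-repaired limb of pig 014 were below both. The highest was the non-repaired limb of pig 023.

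DGAT2 encodes an enzyme of the last step of triglyceride synthesis. DGAT2 was at 0.629 and 3.43 TPM in the sham-operated limbs, a 5.45-fold difference that no other member exceeded. The non-repaired limbs were at 2.31 and 2.50 TPM, the Hya-repaired limbs at 0.401 and 1.97 TPM and the ECM-repaired limbs at 0.499 to 1.22 TPM. No injured limb was above both sham-operated limbs and 2 were below both. The non-repaired limbs were the highest injured limbs, and the ECM-repaired limbs all lay below them.

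SCD encodes stearoyl-CoA desaturase, the enzyme that makes monounsaturated fatty acids for triglyceride and membranes. SCD was at 1.52 and 1.95 TPM in the sham-operated limbs. The injured limbs ran from 7.07 TPM in the Hya-repaired limb of pig 016 to 17.4 TPM in the ECM-repaired limb of pig 024, with a median of 9.75 TPM. The non-repaired limbs were at 9.87 and 11.3 TPM, the Hya-repaired limbs at 7.07 and 8.98 TPM and the ECM-repaired limbs at 7.77 to 17.4 TPM. The lowest injured limb stood well above the higher sham-operated limb, and the injured groups overlapped except that both Hya-repaired limbs were below both non-repaired limbs.

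The first comparison was of VML-injured with sham-operated muscle, the contrast in which the study looked for the lasting effect of the injury. The 3 injured groups were averaged with equal weight to give the VML-injured value, and log2(TPM + 0.5) was tested with limma on every library at once. The pseudocount makes the fold changes of genes at a few TPM or less too small. SCD rose, with a mean of 1.74 ± 0.306 TPM (SD, n = 2) in the sham-operated and 10.2 ± 2.93 TPM (SD, n = 10) in the injured limbs. Its log2 fold change was 2.18 ± 0.29 (SE, limma adjusted p = 5.38e-05). CFD rose as well, with means of 69.1 ± 14.2 and 145 ± 30.8 TPM (SD, n = 2 and 10), and its log2 fold change was 0.98 ± 0.26 (SE, limma adjusted p = 0.00662). PLIN2 fell, with means of 36.6 ± 0.374 and 21.9 ± 6.06 TPM (SD, n = 2 and 10), and its log2 fold change was -0.75 ± 0.30 (SE, limma adjusted p = 0.0484). The 2 genes that rose and the 1 that fell were set against the whole table, in which 49.3% of tested genes were called higher and 7.67% lower (57% in either direction). The share of members called in either direction was thus no larger than that of all genes.

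LPL was at 170 ± 11.3 and 56.5 ± 39.3 TPM (SD, n = 2 and 10) and missed the threshold, at a log2 fold change of -1.84 ± 0.76 (SE) and a limma adjusted p of 0.0564. FABP4 was at 63.0 ± 4.86 and 106 ± 45.1 TPM (SD, n = 2 and 10), with a log2 fold change of 0.67 and a limma adjusted p of 0.157. For ADIPOQ the means were 7.61 ± 4.97 and 7.25 ± 5.62 TPM (SD, n = 2 and 10), and the 95% confidence interval of the log2 fold change ran from -1.92 to 1.50. The intervals of PLIN1 (-1.76 to 1.48), CIDEC (-0.93 to 1.30) and DGAT2 (-1.20 to 0.72) also spanned 0. These intervals include changes of more than 2-fold in either direction for ADIPOQ and PLIN1, so a difference of that size was not detectable with 2 sham-operated limbs.

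Single limbs decided the calls of CFD and PLIN2, and LPL and FABP4, not called here, passed when some single limbs were left out. Leaving out sham-operated pig 025, the log2 fold change of CFD was 0.77 (limma adjusted p = 0.114). PLIN2 stayed past the threshold without the ECM-repaired limb of pig 013 (limma adjusted p = 0.0453) or the Hya-repaired limb of pig 017 (0.00185), and missed it without any other single limb, at 0.0513 to 0.196. LPL passed without the Hya-repaired limb of pig 017 (log2 fold change -2.40, limma adjusted p = 0.00338), the ECM-repaired limb of pig 021 (0.0347) or that of pig 024 (0.0484). Its log2 fold change was -1.29 without the Hya-repaired limb of pig 016. FABP4 passed without the Hya-repaired limb of pig 016, when its log2 fold change was 0.94 (limma adjusted p = 0.0279). SCD passed without any 1 limb, at limma adjusted p values of 2.35e-05 to 0.00297.

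TPM are shares of a fixed sum, and the median of all tested genes was 0.73 higher in injured than in sham-operated muscle on the log2 scale. Muscle fiber genes took a large part of the sum in the sham-operated limbs. TPM were therefore also rescaled by trimmed means of log ratios, which brought the median to 0.01. Rescaled, SCD was still higher, its log2 fold change being 1.51 (limma adjusted p = 0.000454). PLIN2 and LPL were lower, at -1.54 and -2.64 on the log2 scale (limma adjusted p = 0.00502 and 0.0114). CFD was at 0.19 (limma adjusted p = 0.690), with 7 injured limbs above and 3 below both sham-operated limbs. FABP4 turned to -0.12 and CIDEC from 0.18 to -0.49, neither past the threshold. For FABP4, 3 injured limbs were then above both sham-operated limbs and 7 below both. On this scale 1 member was called higher, against 29% of all genes, and 2 lower, against 28%. Without rescaling, all injured limbs were above both sham-operated limbs in 49.8% of tested genes and below both in 8.52%, and the groups overlapped in 41.7%.

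**Figure D2:**
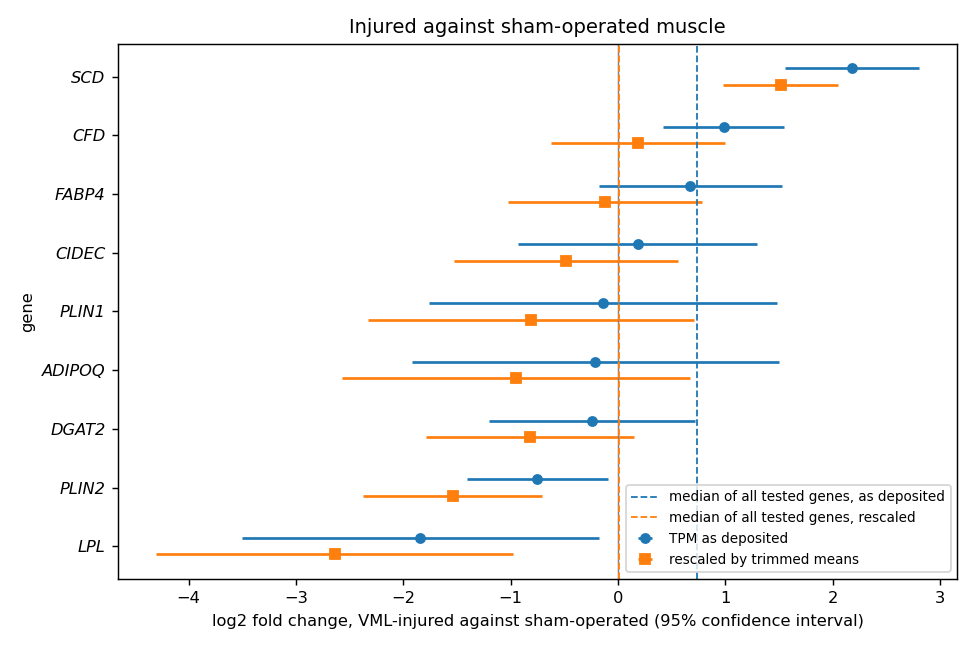
Log2 fold change of VML-injured against sham-operated muscle for the 9 tested genes, with 95% confidence intervals from limma (10 injured and 2 sham-operated limbs), for TPM as deposited (circles) and rescaled by trimmed means of log ratios (squares); dashed lines mark the median of all tested genes on each scale. SCD stands above its median line and PLIN2 and LPL below theirs on both scales, CFD lies close to the line, and FABP4 and CIDEC change sign between the scales.

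The same sham-operated limbs served for each injured group, so the 3 comparisons are not independent. In the non-repaired limbs SCD rose by 2.32 and CFD by 1.03 on the log2 scale (limma adjusted p = 0.000338 and 0.0208), where 45.1% of all genes were called higher and 1.19% lower. FABP4 had a log2 fold change of 1.25 with a limma adjusted p of 0.0549. In the Hya-repaired limbs SCD rose by 1.93 (limma adjusted p = 0.00149) and no other member passed, against 33.8% of genes called higher and 3.74% lower. The log2 fold changes there were 0.77 for CFD, -0.77 for PLIN2 and -2.05 for LPL, with limma adjusted p values of 0.0779, 0.126 and 0.110. In the ECM-repaired limbs SCD rose by 2.30 and CFD by 1.14 (limma adjusted p = 4.33e-05 and 0.00310), and PLIN2 and LPL fell by 0.82 and 2.04 (0.0384 and 0.0422), against 47.9% of genes called higher and 9.98% lower. In either direction, 46.2% of genes were called in the non-repaired, 37.5% in the Hya-repaired and 57.9% in the ECM-repaired group.

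The calls of CFD, PLIN2 and LPL by group each depended on single limbs. CFD was lost in the non-repaired group without the limb of pig 017 (limma adjusted p = 0.145) or of sham-operated pig 025 (0.156), and in the ECM-repaired group without the limb of pig 025 (0.0646). In the ECM-repaired group PLIN2 was lost without pig 014, 018, 021 or 022 or either sham-operated limb (limma adjusted p = 0.0519 to 0.163). LPL was lost there without pig 013, 014, 018 or 022, the non-repaired limb of pig 017 or 023, or either sham-operated limb (0.0572 to 0.189). Rescaled, CFD passed in no group, and SCD was the 1 member called higher in each, against 22% of genes in the non-repaired, 23.4% of genes in the Hya-repaired and 29.5% in the ECM-repaired group. PLIN2 was called lower in all 3 groups, LPL in the Hya-repaired and ECM-repaired groups and DGAT2 in the ECM-repaired group (log2 fold change -1.26, limma adjusted p = 0.0322), against 20.8, 19.2 and 29.3% of genes. DGAT2 was tested only because the non-repaired limbs passed the filter.

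The next question was whether the repair changed these genes. The ECM-repaired group was set against the average of the other injured groups, and limma called no gene of 8765 in either direction, with 113 genes under an unadjusted p of 0.05. No member was among the called, against 0% of all genes. DGAT2 had a log2 difference of -0.68, with a 95% confidence interval from -1.46 to 0.10, but it had passed the filter only through the non-repaired limbs, which are in the reference of this contrast. The intervals of PLIN1 (-1.93 to 0.71), ADIPOQ (-1.84 to 0.94) and LPL (-1.65 to 1.06) were wider, and those of CFD (-0.22 to 0.70) and SCD (-0.33 to 0.68) were narrower. Hya-repaired and non-repaired limbs were also compared, with no gene called and 194 under an unadjusted p of 0.05. ADIPOQ had a log2 difference of -1.82 (95% confidence interval -3.98 to 0.34), PLIN1 of -1.58 (-3.62 to 0.46) and FABP4 of -1.03 (-2.10 to 0.05). In these genes the lower group mean came from 1 limb, since the Hya-repaired limb of pig 016 was at 0.826 TPM for ADIPOQ and that of pig 017 at 9.98 TPM.

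The spread among the injured limbs set the members apart from one another. The SD of log2(TPM + 0.5) over the 10 injured limbs was 1.23 for ADIPOQ, 1.15 for PLIN1 and 1.09 for LPL, against a median of 0.40 over all tested genes. These 3 of the 9 tested members were in the top 10% of tested genes by SD, which begins at 0.72 and holds 10% of genes by construction. CIDEC, FABP4 and DGAT2 were at 0.70, 0.64 and 0.62. PLIN2, SCD and CFD were at 0.38, 0.35 and 0.32, below the median gene. Rescaled by trimmed means, PLIN2 and CFD were at 0.52 and 0.49, above a median of 0.33, and SCD was at 0.32. CIDEC, at 0.66, then joined ADIPOQ, PLIN1 and LPL in the top 10%. The highest and lowest injured limb thus differed 2.18-fold in CFD and 2.46-fold in SCD, and 4.58-fold to 29.2-fold in the genes of wider spread. After condition means were removed the SD was 1.19 for ADIPOQ, 1.11 for PLIN1 and 1.21 for LPL. The spread of these 3 genes thus lay largely within the conditions as labelled. For DGAT2 the SD was then 0.45, lower than before. The matrices of the ECM-repaired limbs are not told apart, so any difference between them would remain in these values.

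**Figure D3:**
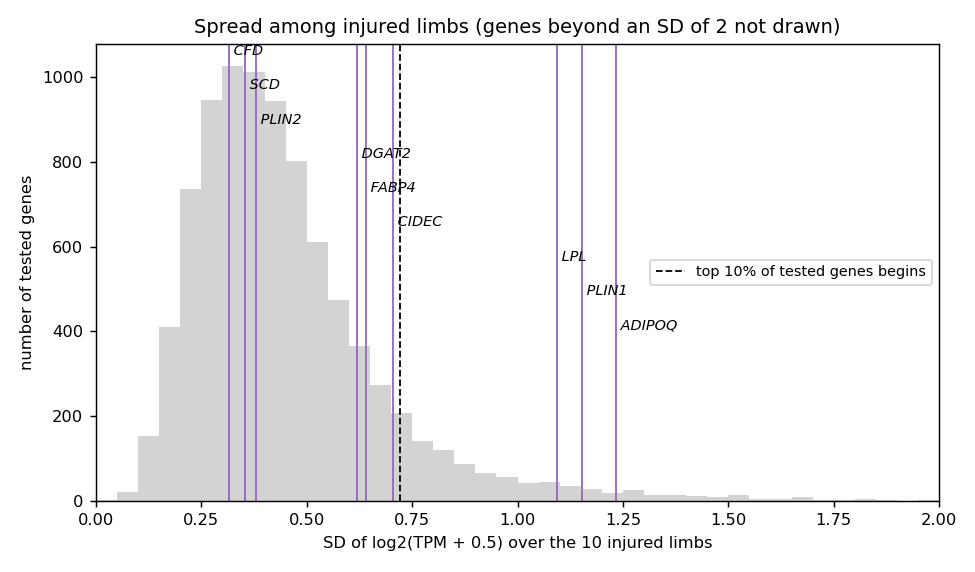
Histogram of the SD of log2(TPM + 0.5) over the 10 injured limbs for the 8765 tested genes, with a vertical line at each tested member and a dashed line where the top 10% of genes begins (0.72); genes with an SD above 2 are not drawn. LPL, PLIN1 and ADIPOQ lie past the dashed line, CIDEC, FABP4 and DGAT2 just before it, and PLIN2, SCD and CFD near the peak of the histogram.

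The sham-operated limbs were also spread in ADIPOQ, PLIN1, CIDEC and DGAT2, but not in LPL or FABP4. The limb of pig 026 held 5.45 times the DGAT2, 3.76 times the PLIN1, 2.72 times the ADIPOQ and 2.71 times the CIDEC of the limb of pig 025. In PLIN2, LPL, FABP4, SCD and CFD the sham-operated limbs differed by 1.01-fold to 1.34-fold. With 2 limbs per control group, the spread of the sham-operated muscle itself was known only roughly for the genes that mark fat cells.

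Among the injured limbs, the Hya-repaired limb of pig 016 was lowest in 8 of the 10 members and among the 3 lowest in all 10. In CIDEC it was at 1.24 TPM, next to the lowest limb, ECM-repaired pig 013, at 1.22 TPM. The ECM-repaired limb of pig 024 was highest in 4 members, ADIPOQ, PLIN1, SCD and LEP. The Hya-repaired limb of pig 017 was highest in 3 (LPL, PLIN2 and CIDEC), the non-repaired limb of pig 023 in 2 (FABP4 and DGAT2) and the ECM-repaired limb of pig 018 in CFD alone. The pair of Hya-repaired limbs therefore held both ends of the range of LPL and PLIN2. Summed over all 10 members, the injured limbs ran from 169.8 to 473.6 TPM and the sham-operated limbs were at 342.6 and 370.1 TPM, with CFD, FABP4 and LPL making up 82.0 to 90.9% of the sum.

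**Figure D4:**
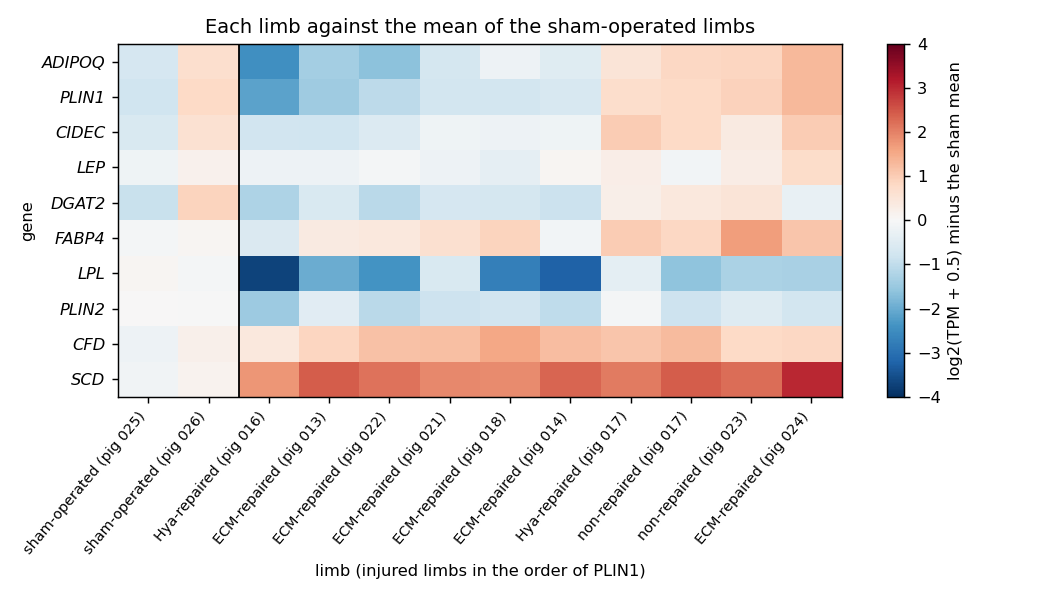
Difference of each limb from the mean of the 2 sham-operated limbs, in log2(TPM + 0.5), for the 10 genes (rows) in all 12 limbs (columns, injured limbs in the order of PLIN1); red is higher and blue lower. The ADIPOQ, PLIN1 and CIDEC rows pass from blue to red in nearly the same order of limbs, SCD is red and LPL blue in every injured limb, and the Hya-repaired limb of pig 016 is the bluest column.

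Members were also compared pair by pair over the 10 injured limbs, with permutation tests of 45 pairs and adjustment over them. There were 12 pairs past the threshold by r, all positive, and none with SCD or CFD. Of these, 7 held PLIN1 or CIDEC, which parted the limbs into the same sets of 6 and 4, so such pairs are described within the 6 lower limbs alone. The same 4 limbs were also the highest in ADIPOQ and DGAT2. By rho fewer pairs passed, namely ADIPOQ with FABP4, PLIN1, CIDEC and DGAT2, and PLIN1 with FABP4 and CIDEC. ADIPOQ followed FABP4 and DGAT2 over all 10 limbs, with r = 0.82 and 0.83 and rho = 0.87 and 0.82 (permutation p of r 0.00294 and 0.00350 and of rho 0.00232 and 0.00607, adjusted p of r 0.0220 and 0.0225). Without the 2 limbs farthest from the median of ADIPOQ r was 0.69 and 0.89. Without both limbs of pig 017 r was 0.83 and 0.80, with a permutation adjusted p of 0.0619 each (n = 8). Rescaled by trimmed means, r was 0.77 and 0.79 (permutation adjusted p 0.0490 and 0.0467). On that scale rho was 0.64 and 0.77 (permutation adjusted p 0.191 and 0.114). Within the 6 lower limbs r was 0.68 and 0.72, with an exact permutation adjusted p of 0.464 each.

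Within the same 6 limbs, ADIPOQ and PLIN1 had r = 0.92 and rho = 0.89 (exact permutation p = 0.0125 and 0.0333), with an adjusted p of 0.113 for r. ADIPOQ and CIDEC had r = 0.87 and rho = 0.66 there (exact permutation p = 0.0486 and 0.175), with an adjusted p of 0.273 for r. Other pairs were as close in these 6 limbs, named after their values were seen. CFD had r = 0.94 with PLIN1 and 0.91 with ADIPOQ (exact permutation p = 0.00972 each), but 0.13 with SCD and -0.09 with LEP. PLIN2 and DGAT2 had r = 0.93 (exact permutation p = 0.00278). Over all 10 injured limbs, r of CFD with PLIN1 and ADIPOQ was 0.16 and 0.28. None of the 45 pairs passed within these limbs after adjustment. The 6 limbs have only 720 orders, too few for any single pair to pass alone once adjusted over 45 pairs. A missed threshold within the 6 limbs, here or above, thus does not show that a pair is unrelated. The ratio of ADIPOQ to PLIN1 was 2.02 and 2.81 in sham-operated and 1.61 to 3.76 in injured muscle, while each gene alone ranged over 20-fold or more. PLIN2 and LPL had r = 0.76 and rho = 0.66 over the 10 injured limbs (permutation p = 0.00944 and 0.0435, adjusted p 0.0425 and 0.119). That relation rested on few limbs, with r = 0.40 without the 2 limbs farthest from the median of PLIN2. Rescaled by trimmed means it did not pass, with r = 0.64 (permutation adjusted p 0.115). The ratio of LPL to PLIN2 was 4.45 and 4.82 in the sham-operated limbs and from 0.963 to 5.46 in injured muscle.

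The genes whose pattern over the 10 injured limbs was most like that of ADIPOQ were, by Pearson r as a description, PLIN1 (0.97), ACKR4 (0.93), MTX2 (0.93), C1H15orf41 (0.93) and PCOLCE2 (0.92). ACKR4 is a scavenging receptor for chemokines, MTX2 a protein of the mitochondrial outer membrane and PCOLCE2 an enhancer of procollagen processing. The r of PLIN1 spans its 2 sets of limbs. PLIN1 was thus first of 8765 tested genes and CIDEC sixth, while DGAT2 and FABP4 were at ranks 63 and 76. For PLIN2 the closest were SULT2B1 (0.97), MRPS28 (0.95), LYRM5 (0.95), GHITM (0.95) and PRDX3 (0.95). SULT2B1 was at only 0.105 to 0.975 TPM in the injured limbs and ACKR4 at 0.299 to 1.97 TPM, where the pseudocount weighs on the pattern. MRPS28 is a protein of the mitochondrial ribosome, GHITM lies in the inner membrane of mitochondria and PRDX3 is their peroxidase. No fat cell gene of the list was among the closest to PLIN2.

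Other genes of the same pathways were taken from lists, whose counts stand against 49.3% of all genes higher and 7.67% lower (29 and 28% rescaled). Calls over all genes themselves dropped to 27.7% higher and 1.41% lower without sham-operated pig 025, and to 40.6 and 2.01% without sham-operated pig 026. Of the regulators of fat cell formation, 2 of 9 tested rose and 1 fell (rescaled 1 and 4). CEBPA, which keeps fat cells differentiated, rose by 1.67 on the log2 scale (limma adjusted p = 0.00227), with means of 2.85 ± 2.20 and 9.66 ± 2.47 TPM (SD, n = 2 and 10). CEBPD rose by 1.14 (0.0142; rescaled 0.35, 0.390) and CEBPB fell by 1.08 (0.0439). KLF15 of the same list was not called, at 7.35 and 8.63 TPM in sham-operated and 1.23 to 7.01 TPM in injured muscle. PPARG, the master regulator of fat cells, had a log2 fold change of 0.76 with a limma adjusted p of 0.0624. None of the 9 passed without sham-operated pig 025, while 5 rose and 2 fell without the ECM-repaired limb of pig 024. No gene of the list was lower in 8 of the 12 fits that left out 1 limb. The median of the list, 0.75, was near the 0.73 of all genes.

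Droplet coat and growth genes went both ways, with 3 of 8 tested higher and 2 lower (rescaled 1 and 3), a median of 0.65. HILPDA, which inhibits a lipase at the droplet, rose by 1.34 (limma adjusted p = 0.000583; rescaled 0.61, 0.0614). PLIN3, a perilipin of small droplets in many cells, rose by 1.46 (0.000739). BSCL2, which encodes seipin, rose by 0.93 (0.00580; rescaled 0.14, 0.532). FITM1, a droplet gene of muscle, fell by 2.22 (limma adjusted p = 0.0200), from 105 and 133 TPM in sham-operated muscle to 6.70 to 64.6 TPM in the injured limbs. PLIN5, the perilipin of oxidative muscle, fell by 2.51 (0.0278), from 13.2 and 20.1 TPM to 0.412 to 11.1 TPM, and was picked for mention after its values were seen. None was lower once either sham-operated limb was left out, with 2 higher without pig 025 and 3 without pig 026, and 1 was lower without the non-repaired limb of pig 017. PLIN4 was not analysed here.

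The list of de novo lipogenesis and desaturation, the pathways around SCD, had 7 of 10 tested genes higher and none lower (rescaled 6 and 1). It includes desaturases, so the count is not of synthesis genes alone. Leaving out sham-operated pig 025 left 3 higher and none lower. Its median was 1.48, against 0.73 for all genes, and 0.73 rescaled, against 0.01. ACLY, which makes the acetyl-CoA for fatty acids, rose by 2.03 (limma adjusted p = 4.95e-05), with means of 5.63 ± 1.56 and 24.5 ± 5.36 TPM (SD, n = 2 and 10). SCD5, a desaturase related to SCD, rose by 2.39 (7.08e-05), from 0.870 and 0.933 TPM to 4.06 to 10.1 TPM. FADS1, a desaturase of polyunsaturated fatty acids, rose by 2.17 (0.000865) and ELOVL6, an elongase, by 1.25 (0.00714). All 4 named genes were also higher after rescaling, at limma adjusted p values of 4.55e-05 to 0.0253.

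Triglyceride synthesis had 4 of 9 tested genes higher and 3 lower, with a median of -0.19 (rescaled 1 and 5). LPIN2 rose by 1.98 (limma adjusted p = 0.000442), AGPAT1 by 1.18 (0.00236), LPIN3 by 1.12 (0.0145) and DGAT1, which shares its step with DGAT2, by 1.09 (0.00743). LPIN2 alone of these stayed higher when rescaled. LPIN1, the lipin of muscle and fat, fell by 1.50 (limma adjusted p = 0.00768), GPAM, of the first step, by 1.09 (0.0273) and GPD1, which supplies glycerol phosphate, by 2.12 (0.0266). LPIN3, GPAM and GPD1 were picked for mention after their values were seen. Without sham-operated pig 025, 1 rose and 1 fell, without pig 026 4 rose and none fell, and leaving out non-repaired pig 017 gave 4 higher and 1 lower.

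Lipolysis genes had 1 of 7 tested higher and 2 lower, with a median of -0.41 (rescaled 1 and 5). PNPLA2, the triglyceride lipase of the droplet, fell by 0.89 (limma adjusted p = 0.0160) and AQP7, the glycerol channel of fat cells, by 1.36 (0.0251). LIPE, the hormone-sensitive lipase, had a log2 fold change of -0.60 (0.169; rescaled -1.33, 0.00283). LIPA, the acid lipase of lysosomes, rose by 2.92 (7.42e-06), from 3.81 and 4.18 TPM to 16.7 to 61.1 TPM. One gene was lower without sham-operated pig 025 or the non-repaired limb of pig 017, and none without sham-operated pig 026. ADRB3, the adrenergic receptor of fat cells, was listed at 0 in every library.

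Of 10 genes of fatty acid uptake, 3 rose and 3 fell, with a median of 0.03 (rescaled 1 and 3; without sham-operated pig 025, 1 and none; without pig 026, 2 and none; without the non-repaired limb of pig 017, 3 and 1). SLC27A4, a fatty acid transporter, rose by 1.99 (limma adjusted p = 0.000718). FABP5 rose by 0.78 (0.0169), close to the median gene, with -0.02 when rescaled, and CAV1 by 0.95 (0.0261; rescaled 0.15, 0.613). The transporters SLC27A1 and CD36 and the fatty acid ligase ACSL1 fell by 1.22 (0.0250), 1.97 (0.0267) and 1.98 (0.0315), the last pair named after their values were seen. CD36 was at 105 and 150 TPM in sham-operated and at 9.22 to 81.5 TPM in injured muscle, so like LPL it was lower in all 10 limbs.

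Adipokines and their receptors had 3 of 7 tested genes higher and 1 lower, with a median of 0.80 (rescaled 1 and 3). RARRES2, which encodes chemerin, rose by 2.95 (limma adjusted p = 1.27e-05), from 29.8 and 81.3 TPM to 315.0 to 549 TPM. CDH13, a receptor of adiponectin, rose by 1.21 (0.0248) and RBP4 by 0.80 (0.0212), neither of them when rescaled, and NAMPT fell by 1.28 (0.0102). Without sham-operated pig 025, 1 was higher and none lower. Of the alternative complement pathway in which CFD acts, 4 of 5 tested genes rose and none fell, with a median of 1.45 (rescaled 1 and none). CFP, or properdin, rose by 2.17 (2.40e-05), C3 by 2.13 (0.00221; rescaled 1.36, 0.0553), and the complement inhibitors CD55 and CD46 by 1.45 (0.0253) and 1.10 (0.0433). Of these 5, 2 rose without sham-operated pig 025, the Hya-repaired limb of pig 016 or the non-repaired limb of pig 023.

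Markers of macrophages, of progenitors and fibroblasts and of muscle fibers moved with the injury, while no endothelial marker was called. The counts stand against 49.3% of all genes called higher and 7.67% lower. All 8 tested macrophage markers rose, with a summed level of 20.7 and 65.0 TPM in sham-operated and 334 to 1042 TPM in injured muscle. Markers of fibro-adipogenic progenitors and fibroblasts rose in 9 of 10, from 873 and 1144 TPM summed to 23752 to 61594 TPM. Markers of the muscle fiber fell in 6 of 10, from 106997 and 110830 TPM summed to 6925 to 53200 TPM, and in 1 of 10 when either sham-operated limb was left out. Of 9 endothelial markers none was called, with 206 and 373 TPM summed against 140 to 679 TPM. Markers of fat cells summed to 133 and 181 TPM in sham-operated and 145 to 358 TPM in injured muscle, with CFD and FABP4 the most abundant of them. Of 8 tested markers of fat cells, CFD alone rose, and when rescaled LIPE alone was called and was lower. ADIPOQ, PLIN1, CIDEC, CFD and FABP4 among these 8 are members themselves, so the count largely repeats the results above. Of these 8, none rose without sham-operated pig 025, 3 without the Hya-repaired limb of pig 016 and 2 without the ECM-repaired limb of pig 024. No defining marker of these lists among those tested was at 0 in all libraries of a group, and the part of each cell type in the results of the members was not tested.

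LPL was lowest in the 3 limbs with the fewest muscle fiber markers. The Hya-repaired limb of pig 016 had 12.5 TPM of LPL and 7960 TPM of summed muscle fiber markers, the ECM-repaired limb of pig 014 had 17.8 and 6925 TPM and that of pig 018 had 25.2 and 10717 TPM. The Hya-repaired limb of pig 017 had 130 TPM of LPL and the most muscle fiber markers of the injured limbs, 53200 TPM. The ECM-repaired limb of pig 021 had 111 TPM of LPL with 26743 TPM of the markers, close to the non-repaired limb of pig 017 with 55.1 and 26644 TPM. PLIN2 had a similar but not identical order. Its lowest value was in pig 016 too, and the next, 17.2 TPM, in the ECM-repaired limb of pig 022, which had 22512 TPM of the markers. The ECM-repaired limb of pig 014 followed closely at 17.8 TPM of PLIN2, while that of pig 018 was at 21.3 TPM. Like LPL, PLIN2 was highest in the Hya-repaired limb of pig 017, at 35.0 TPM. FABP4 was highest in the non-repaired limb of pig 023 and next in the ECM-repaired limb of pig 024, at 202 and 136 TPM, and these also had the most endothelial markers, at 641 and 679 TPM summed. In the Hya-repaired limb of pig 016, FABP4 was at 41.9 TPM with 348 TPM of endothelial markers. The part of muscle fibers or endothelium in these values was not tested.

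**Figure D5:**
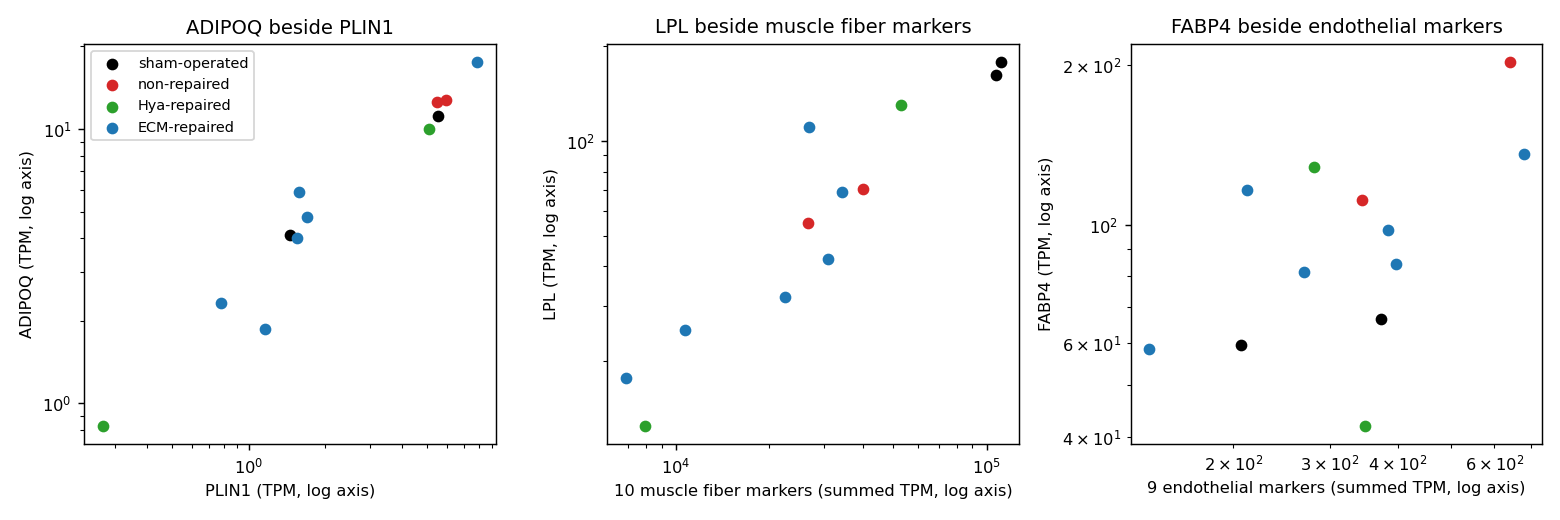
Each point is 1 limb, on log axes in TPM: ADIPOQ beside PLIN1 (left), LPL beside the sum of 10 muscle fiber markers (middle) and FABP4 beside the sum of 9 endothelial markers (right). ADIPOQ and PLIN1 lie along a line in sham-operated and injured limbs alike, LPL is highest in the sham-operated limbs, which also have the most muscle fiber markers, and the 2 limbs highest in FABP4 are those with the most endothelial markers.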

How the data were processed

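RNA-seq libraries of 12 limbs from 11 pigs were analysed as 4 groups, taken from the sample labels. The authors made TruSeq libraries from total RNA and pseudoaligned paired-end reads with kallisto. Tool versions are not given in the sources used here. The values used were the TPM deposited by the authors for 11506 named genes, which hold 71.5 to 82.7% of a library's TPM. The labels state an average of 55 M reads per library. TPM keep no read counts, so the depth of each library is unknown and precision is limited by the count of limbs. There were 21 names turned into dates that were left out, and 618 of 1833 LOC names were given a symbol from RefSeq.

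A gene was tested where every library of some condition reached 1 TPM, which kept 8765, as log2(TPM + 0.5) with limma 3.58.1 in R 4.3.3 (eBayes with trend and robust estimation), with 1 coefficient per condition. P values were adjusted over the tested genes (Benjamini-Hochberg) per comparison, with a threshold of 0.05. Standard errors and 95% confidence intervals are limma's. Replicates are separate limbs. The method was tested on simulated data. LEP was tested by exact permutation in Python 3.11.15 with scipy 1.17.1, and pairs of genes with 1e+05 permutations of the limbs. For rescaled values, each library was divided by its trimmed mean of ratios to 1 reference library (30% of log ratios and 5% of abundances trimmed). The reference was the library whose upper quartile was nearest the mean upper quartile.

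The members and lists were chosen with earlier results of these data known. Named genes are the members, the up to 4 genes of each list with the smallest p between VML-injured and sham-operated muscle, and the 5 genes most like ADIPOQ and PLIN2. Alternatives were 2 rescalings, the 100 most abundant sham genes left out, pseudocounts of 0.1 and 1, other filters, a simpler variance model, only the compared groups, each limb left out and both limbs of pig 017 left out.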

Additional observations from a re-analysis of the deposited data

Results flagged for a closer look

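In each group of 4 to 10 limbs, the gap between the highest or lowest limb and its neighbour was divided by the range of the group and set against Dixon's 95% critical value. There were 30 such groups over the 10 genes, of which chance flags about 1 in 20, and 5 stood out, all in 2 limbs. Among the 4 injured limbs without ECM, the Hya-repaired limb of pig 016 stood below the others in ADIPOQ (ratio 0.897), PLIN1 (0.931) and DGAT2 (0.839). Among the 6 ECM-repaired limbs, that of pig 024 stood above the others in PLIN1 (0.712) and CIDEC (0.650). ADIPOQ, PLIN1, CIDEC and DGAT2 were highest in the same 4 injured limbs, so these are not independent of one another.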

How the results depend on the processing

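SCD kept its direction and its call in VML-injured muscle and in each injured group under every alternative run. The number of members called higher in VML-injured muscle was 2, and 1 under either rescaling or with the most abundant sham genes left out (1 to 3 with each limb left out). The number called lower was 1. It was 2 under these 3 scalings, with genes at 1 TPM or more in all libraries, and without both limbs of pig 017, and 0 with no filter and with no trend or robust estimation (0 to 2 with each limb left out). In non-repaired limbs 2 were higher and none lower, against 1 and 1 under the 3 scalings, 2 lower with only the compared groups, and 1 to 3 higher and 0 to 1 lower with each limb left out. In Hya-repaired limbs none was lower, against 2 under the 3 scalings and without pig 017 (0 to 2 with each limb left out). In ECM-repaired limbs 2 were higher and 2 lower, against 1 higher and 3 lower under the 3 scalings, and 1 to 2 higher and 0 to 2 lower with each limb left out. The number of members in the top 10% by SD went from 3 to 5 at a pseudocount of 0.1 (3 to 4 with each limb left out). The number of pairs past the threshold by r went from 12 to 4 without pig 017 (8 to 12 otherwise). The cause was not tested.

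Directions turned for genes that were not called. ADIPOQ was at 0.29 without the Hya-repaired limb of pig 016 and 0.46 without sham-operated pig 026 (-0.88 to 0.46 with each limb left out), and PLIN1 at 0.34 and 0.67 (-0.95 to 0.67). FABP4 was at -0.12, -0.14 and -0.30 by trimmed means, median of ratios and with the sham genes left out. CIDEC was at -0.49, -0.50 and -0.68 under these, -0.19 without both limbs of pig 017, -0.12 without its Hya-repaired limb and -0.41 without sham-operated pig 025 (-0.41 to 0.78). DGAT2 was at 0.66 without sham-operated pig 026 (-1.14 to 0.66). No paired analysis was possible because only pig 017 gave 2 limbs, so a correlation within pigs could not be estimated and the replicate block was not run. Where a group was left with 1 limb, that limb was assumed to vary like those of the other groups.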

Other observations

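Markers of brown fat cells and of skin glands, in which SCD and other lipid genes are also made, were at low levels. Of the brown fat markers, PPARGC1A fell by 1.25 on the log2 scale (limma adjusted p = 0.0146), with means of 2.54 ± 0.182 and 0.757 ± 0.412 TPM (SD, n = 2 and 10), and did not pass when either sham-operated limb was left out. CIDEA, which acts on droplets like CIDEC, was at 2.05 and 5.74 TPM in sham-operated and 2.99 to 9.37 TPM in injured muscle, with a limma adjusted p of 0.187. ELOVL3 was listed at 0 in both sham-operated limbs and at or under 0.0966 TPM in the injured limbs, and UCP1 was not analysed here. Of the skin and sebaceous genes, KRT10 was at 4.22 and 5.77 TPM in sham-operated and 5.71 to 10.3 TPM in injured muscle (limma adjusted p = 0.0709). KRT5 was listed at 0 in both sham-operated limbs and at or under 0.907 TPM in the injured limbs, and FA2H was at or under 0.270 TPM in every limb. The summed level of the skin list was 4.24 and 5.79 TPM in sham-operated and 5.74 to 11.2 TPM in injured muscle.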
